A study of Rattus norvegicus with 6 samples.

Results

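The genes described here encode the ADAM, ADAMTS, cathepsin and calpain proteases of the rat, together with the ADAMTS-like proteins. They were taken by symbol from the deposited count table, which lists 33566 genes, and numbered 79: 26 ADAM, 19 ADAMTS, 4 ADAMTS-like, 17 cathepsin and 13 calpain genes. RNA was sequenced from 6 libraries of primary rat brain microvascular endothelial cells (rBMECs), 3 from cells treated with homocysteine (Hcy) and 3 from vehicle-treated cells (Veh), to find which transcripts Hcy changes. The Hcy group received 100 μM Hcy for 24 h according to the treatment label, although the protocol also speaks of a prepared 50 μM solution, and the Veh group received ddH2O. Both groups were cells from the cortex of SD rats aged 18 to 22 days, purified with a screening solution and used after 1 passage. The published methods name the cerebral forebrain as the source. The labels speak of 3 biological replicates per group and do not say which animals or isolations each came from, so p-values measure the spread between these libraries.

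ADAM proteases are anchored in the plasma membrane and cut the outer part of other surface proteins, a step called shedding. ADAMTS proteases are secreted and cut proteins of the extracellular matrix, and ADAMTS-like proteins share their matrix-binding modules but lack the protease. Cathepsins are mainly proteases of the lysosome, and calpains are calcium-dependent proteases of the cytosol. In endothelium these enzymes are known for shedding of adhesion molecules and growth factor receptors, remodelling of the basement membrane, cutting of von Willebrand factor, lysosomal protein turnover and cleavage of the cytoskeleton.

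The families differed in the protein domains that the deposited annotation lists. A reprolysin-type zinc protease domain and a disintegrin domain were listed for 26 of 26 ADAM genes. The zinc protease was listed for 18 of 19 ADAMTS genes, a thrombospondin type 1 domain for 17 and the ADAMTS spacer for 16. Among the 4 ADAMTS-like genes none had the zinc protease and 3 had thrombospondin type 1 domains. Of the 17 cathepsins, 13 carried a papain-type cysteine protease, 2 an aspartic protease and 2 a serine-type protease. The calpain protease was listed for 11 of 13 calpains, and EF hands, the calcium-binding fold, for 3, Capn1, Capn2 and Capn3.

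Libraries held between 14024997 and 16764584 reads counted on genes. A level of 3 counts, taken as the floor of detection, was 0.178 to 0.215 CPM (counts scaled to library size with TMM factors), and such floors cover counting error only. The endothelial label was checked with 15 markers, of which 13 are in the table. Their summed level was 9458 to 9884 CPM in Hcy and 7829 to 9046 CPM in Veh, 12 were tested and none passed the adjusted p, and Cldn5 had 0 counts in all 6 libraries. Markers of pericytes and smooth muscle summed to 681 to 708 CPM in Hcy and 1124 to 1352 CPM in Veh. Of these 11 markers 6 had positive and 5 negative log2 fold changes, with a median of 0.44. The adjusted p was passed by 3 of them, against 2.34% of all genes tested (1.01% lower in Hcy). All 3 are contractile genes and fell, with log2 fold changes of -0.88 for Tagln, -0.64 for Acta2 and -1.39 for Cnn1 (adjusted p = 0.000801, 0.0248 and 0.00177). The pericyte-defining Pdgfrb, Rgs5 and Cspg4 totalled 198, 30 and 45 counts over the 6 libraries and had positive values (0.73, 1.26 and 1.66) that did not pass. Markers of microglia and macrophages summed to 2.22 to 3.09 CPM in Hcy and 2.32 to 2.74 CPM in Veh, with 4 of 10 at 0 counts. In bulk RNA, fewer cells of a type and less RNA per cell cannot be told apart. Veh replicate 3 stood apart from the other libraries, at 30.4 on the second principal component (26.2% of the variance) against -16 and -19 for Veh replicates 1 and 2, and for named proteases and inhibitors whose fold change it moved by more than 1.5 times, the value without it is given as well.

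Lysosomal cathepsins took most of the reads counted on the 79 genes. Of the 79 genes, 24 had 0 counts in all libraries, 11 had 1 to 9 counts in sum, and 44 reached the 10 summed counts needed for a test. Levels per gene length (RPKM, CPM divided by gene length in kilobases) were at least 1 for 29 genes and at least 10 for 20 genes. Together the 79 genes took 0.917% to 0.956% of the reads of a library. Ctsl, a broad lysosomal cysteine protease, alone took 47.4% to 52.3% of these reads, and Ctsb, the next, took 12.7% to 15.7%.

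By RPKM over the 6 libraries, the order was Ctsl (mean 2795), Ctsb (692), the aspartic protease Ctsd (250), the carboxypeptidase Ctsa (160), Adam15 (151), Capn2 (120) and Adam8 (77.6). Ctsd and Ctsa did not overlap in any library, whereas Ctsa and Adam15 lay close. Their means were 158 ± 2.52 and 155 ± 3.83 RPKM in Veh, where the libraries overlapped, and 163 ± 10.9 and 146 ± 3.94 RPKM in Hcy, where they did not (SD, n = 3). The highest ADAMTS gene was Adamts4 with a mean of 30.6 RPKM. The ADAMTS-like genes were low, with 1.91 RPKM for Adamtsl4 and 0.294 RPKM for Adamtsl2.

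**Figure D1:**
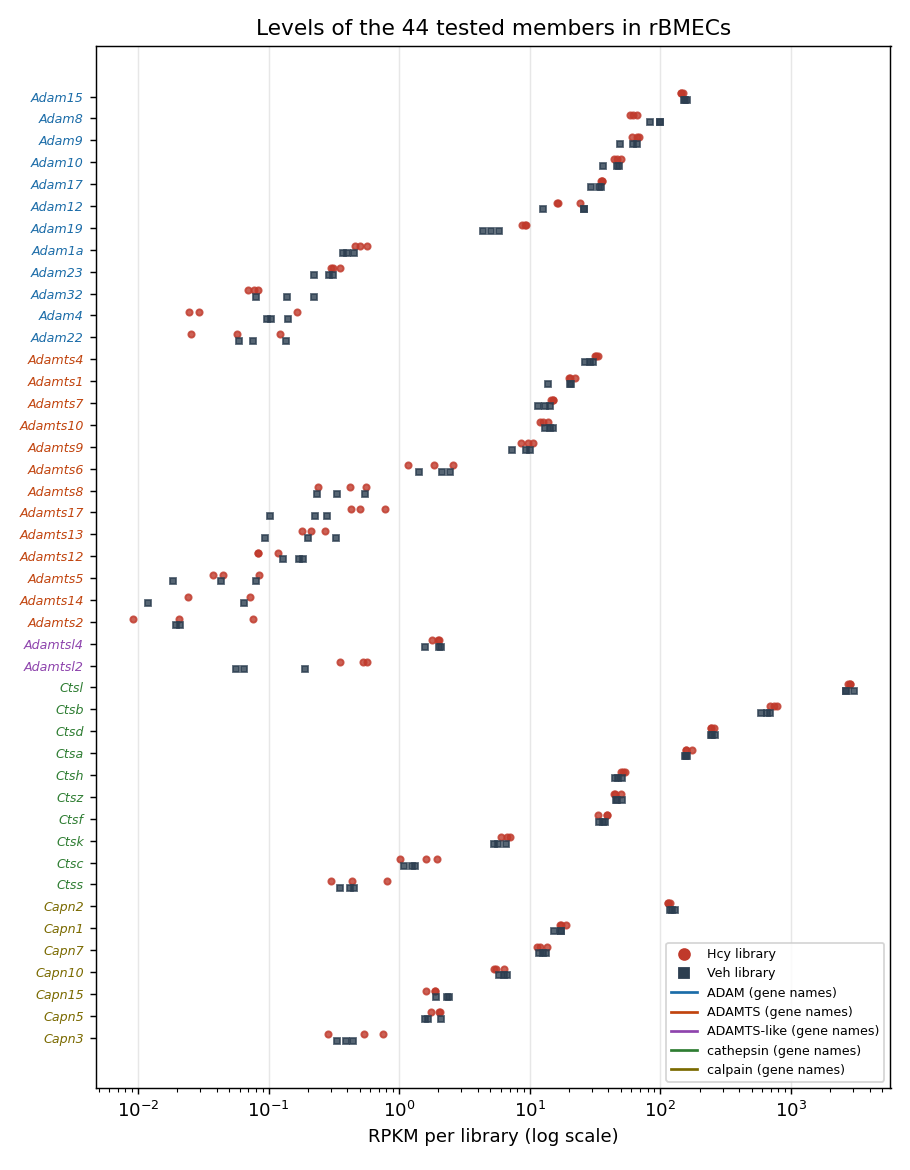
Level of each of the 44 tested genes in RPKM on a log axis, one point per library, with red circles for the 3 Hcy and dark squares for the 3 Veh libraries, and gene names coloured by family (libraries with 0 counts are not drawn). Levels run from Ctsl, with a mean of 2795 RPKM, to Adamts2, with a mean of 0.0245 RPKM. The groups do not overlap for 8 genes higher and 4 lower in Hcy (all genes tested: 20.1%), among them Adam19, Adamtsl2 and Adam8.

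The 35 genes that could not be tested included several known from other tissues. Among ADAM genes, Adam2, Adam3a, Adam5, Adam6a, Adam7, Adam18, Adam21, Adam24, Adam28, Adam30, Adam34 and Adam34l had 0 counts, and several of these are known from sperm and testis. Adam11 and Adam33 had 7 and 1. Adamts16, Adamts19 and Adamts20 had 0 counts, and Adamts15, Adamts3 and Adamts18 had 9, 3 and 1. Adamtsl5 and Adamtsl3 had 7 and 2 counts. Ctsg, the neutrophil cathepsin, and the rodent placental Ctsj, Ctsm, Ctsq and Ctsr had 0 counts, and Ctsw and Ctse, known from immune cells, had 9 and 4. Capn6, Capn9, Capn11 and Capn13 had 0 counts, and Capn12 and Capn8 had 9 and 1. A count of 0 allows up to 0.178 to 0.215 CPM, depending on the library.

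Neighbouring genes of a family could stand at very different levels. On chromosome 16 Adam9 had 17742 counts over the 6 libraries, Adam32, which starts 1.31 kb beyond it, had 27, and Adam5, Adam3a and Adam18 further along had 0. On chromosome 11 Adamts1 had 8009 counts and Adamts5, 60.0 kb away, had 15. Capn2 had 38918 counts and Capn8, 51.8 kb away on chromosome 13, had 1. Ctsh and Adamts7, 77.5 kb apart on chromosome 8 and of different families, had 8062 and 7893. Gene positions are those of the deposited table, which names no genome build.

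Few of these transcripts passed the adjusted p, and the share of all genes that passed was small as well. Across all 14603 genes tested, 71 passed both an adjusted p of at most 0.05 and a 2-fold change, which is 0.486%. None of the 44 tested genes of these families did. By adjusted p alone 341 genes passed (2.34%), and 2 of the 44 did: Adam19 rose and Adam8 fell. At an unadjusted p of at most 0.05, 5 were higher and 2 lower in Hcy, against 7.44% and 5.95% of all genes (13.4% in either direction). DESeq2 called 1 of the 44, Adamtsl2, by both thresholds, beside 100 of all genes (0.685%). The libraries of the groups did not overlap for 12 genes, 8 higher and 4 lower in Hcy, against 10.8% and 9.27% of all genes (20.1% in either direction). Log2 fold changes (Hcy relative to Veh) were positive for 29 of the 44 and negative for 15, with a median of 0.11, beside -0.02 over all genes tested, of which 46.9% were positive. Without Veh replicate 3 the median was 0.0457 over the 44 genes and -0.0031 over all genes. In that fit 4 of the 44 passed the adjusted p (Adam19, Adam8, Adamtsl2 and Ctsb), beside 957 of all 14352 genes tested (6.67%).

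**Figure D2:**
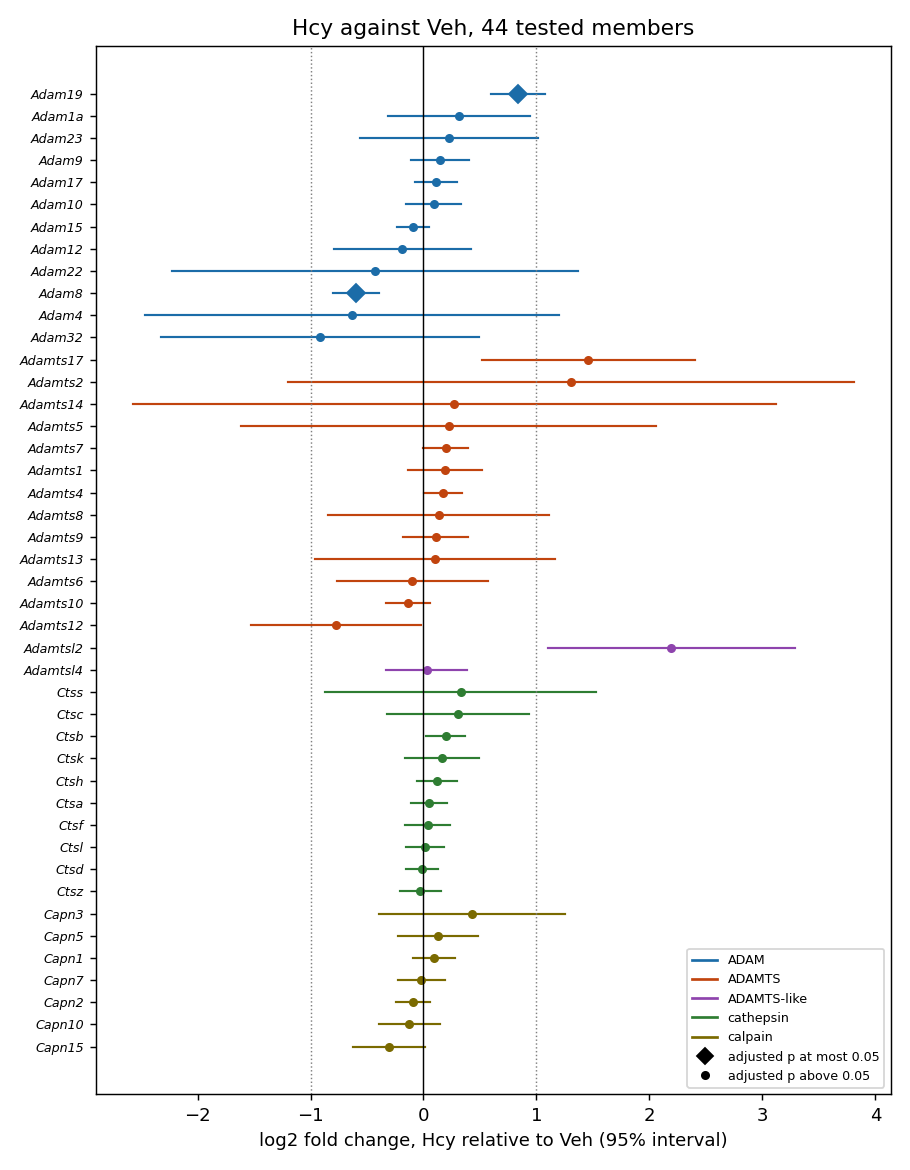
Log2 fold change (Hcy relative to Veh, x axis) of the 44 tested genes with its 95% interval as a bar, coloured by family and ordered within it, with dotted lines at 2-fold. Diamonds mark Adam19 (0.84) and Adam8 (-0.60), which passed the adjusted p, and the points of the 10 tested cathepsins lie between -0.03 and 0.33.

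Among the ADAM genes, 1 rose, 1 fell, and 10 of the 12 tested did not pass. The family median was -0.00, with 6 positive and 6 negative values. The promoters of the 2 genes that passed the adjusted p are printed here, and with them that of Adamtsl2, which did not pass but had the largest fold change of the 44. They are from RefSeq (build GRCr8, 55 of the 79 genes had an entry), run from 250 bases before to 50 after the gene's start, and are read 5′ to 3′ on the gene's strand. Capitals mark matches to 5 motifs searched on both strands: the TATA box (TATAAA), the GC box (GGGCGG), the CCAAT box (CCAAT), the AP-1 type site (TGANTCA) and the core of the antioxidant response element (TGACNNNGC).
Adam19, chr10:30992511-30992810, plus strand: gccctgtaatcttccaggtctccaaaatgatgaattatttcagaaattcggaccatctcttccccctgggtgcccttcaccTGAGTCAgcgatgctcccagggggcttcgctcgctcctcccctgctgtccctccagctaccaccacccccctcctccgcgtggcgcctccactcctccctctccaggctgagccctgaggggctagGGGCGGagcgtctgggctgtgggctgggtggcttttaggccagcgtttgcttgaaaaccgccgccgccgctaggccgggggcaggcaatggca
Adam8, chr1:204218273-204218572, minus strand: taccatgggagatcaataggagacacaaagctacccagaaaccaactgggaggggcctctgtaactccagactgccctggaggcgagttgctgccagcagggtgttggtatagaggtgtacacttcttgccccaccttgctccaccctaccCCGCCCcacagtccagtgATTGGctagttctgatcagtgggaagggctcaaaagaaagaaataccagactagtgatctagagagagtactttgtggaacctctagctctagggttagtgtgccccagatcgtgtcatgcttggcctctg
Adamtsl2, chr3:30802450-30802749, plus strand: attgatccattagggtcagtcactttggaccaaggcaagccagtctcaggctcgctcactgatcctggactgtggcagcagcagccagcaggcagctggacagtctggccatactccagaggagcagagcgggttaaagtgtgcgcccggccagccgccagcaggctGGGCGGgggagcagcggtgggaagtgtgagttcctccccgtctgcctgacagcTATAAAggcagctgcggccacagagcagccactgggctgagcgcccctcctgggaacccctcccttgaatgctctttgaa

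With the start counted as 0, Adam19 held TGANTCA at position -169, which reads on both strands, and GGGCGG at -43. Adam8 held GGGCGG at -99 and CCAAT at -81, both on the reverse strand, so that the printed strand shows their complements. Adamtsl2 held GGGCGG at -83 and TATAAA at -30. No other matches overlapped, and none of the 3 held TGACNNNGC. Of all 27457 promoters of this length, 34.9% held GGGCGG, 37.7% CCAAT, 14.3% TATAAA, 7.33% TGANTCA and 12.2% TGACNNNGC. CpG dinucleotides numbered 15 in Adam19, 3 in Adam8 and 10 in Adamtsl2, against a median of 7.0 over all promoters, and Adam8 had the lowest GC content of the 3 (53.0%, against 63.7% and 62.0%). These matches describe letters in the sequence, and the RNA-seq data do not bear on whether any factor bound there.

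Adam19, a membrane-anchored sheddase known for cutting neuregulins and for its role in heart development, was higher in every Hcy library. Its level was 55.0, 58.4 and 57.7 CPM in Hcy replicates 1, 2 and 3 and 36.6, 31.5 and 27.8 CPM in Veh replicates 1, 2 and 3. The lowest Hcy library thus lay well above the highest Veh library, and the Hcy libraries lay closer together (SD 1.81 CPM) than the Veh libraries (SD 4.42 CPM). The log2 fold change was 0.84 (SE 0.10, 95% interval 0.60 to 1.07, adjusted p = 0.00602). Adam19 passed the adjusted p without each library in turn, with log2 fold changes of 0.75 to 0.95 and adjusted p of 0.000676 to 0.0442, the smallest log2 fold change being that without Veh replicate 3. Adam19 (ENSRNOG00000042980) is on the plus strand of chromosome 10 at 31146107 to 31240582 in the deposited table, and its level per length was 9.08 RPKM in Hcy and 5.08 RPKM in Veh.

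Adam8, a sheddase known from leukocytes and activated endothelium that cuts adhesion molecules, was lower in every Hcy library. It stood at 183, 171 and 162 CPM in Hcy replicates 1, 2 and 3 and at 275, 275 and 232 CPM in Veh replicates 1, 2 and 3. The groups did not overlap, and Veh replicate 3 was the Veh library nearest to Hcy. The log2 fold change was -0.60 (SE 0.09, 95% interval -0.80 to -0.40, adjusted p = 0.0121). Adam8 did not pass without Hcy replicates 1, 2 or 3 (adjusted p = 0.052, 0.0659 and 0.0825) and without Veh replicate 2 (0.0524), and it passed without Veh replicate 1 (0.0498) and without Veh replicate 3 (0.000308). Its sign was the same in all 6 of these fits (-0.67 to -0.56). Of 10 markers of microglia and macrophages, cells that also express Adam8, 4 were tested, with 1 positive and 3 negative log2 fold changes (median -0.36), and none passed the adjusted p. The summed level of the 10 markers overlapped between the groups, at 2.22 to 3.09 CPM in Hcy and 2.32 to 2.74 CPM in Veh. The part of such cells in the Adam8 result was not tested. Adam8 (ENSRNOG00000017897) is on the minus strand of chromosome 1 at 212317848 to 212330349 in the deposited table.

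The ADAM genes with the best known shedding roles in endothelium differed little. Adam10, which cuts Notch receptors and VE-cadherin, stood at 166, 188 and 176 CPM in Hcy and 177, 182 and 139 CPM in Veh, with a log2 fold change of 0.09 (95% interval -0.16 to 0.33, adjusted p = 0.80). The groups overlapped, the lowest library was Veh replicate 3, and without it the value was -0.02. Adam17, the sheddase of TNF and of several growth factors, stood at 146, 146 and 144 CPM in Hcy and 144, 138 and 121 CPM in Veh. The Hcy libraries lay just above the Veh libraries, with a log2 fold change of 0.11 (95% interval -0.07 to 0.29, adjusted p = 0.632), or 0.04 without Veh replicate 3. Adam9, another broad sheddase, had a log2 fold change of 0.15 (95% interval -0.11 to 0.40, adjusted p = 0.654) with overlapping groups, and 0.03 without Veh replicate 3 but 0.24 without Veh replicate 2. Adam15, the most abundant ADAM and known from endothelial junctions, stood at 456, 437 and 433 CPM in Hcy and 484, 468 and 461 CPM in Veh. All Hcy libraries were below all Veh libraries, but the difference was small (-0.09, 95% interval -0.23 to 0.05, adjusted p = 0.60). The 6 other tested ADAM genes did not pass. Adam1a among them is annotated as a pseudogene and did not overlap between groups at 19, 22 and 28 counts in Hcy and 20, 21 and 16 in Veh once scaled to library size.

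**Figure D3:**
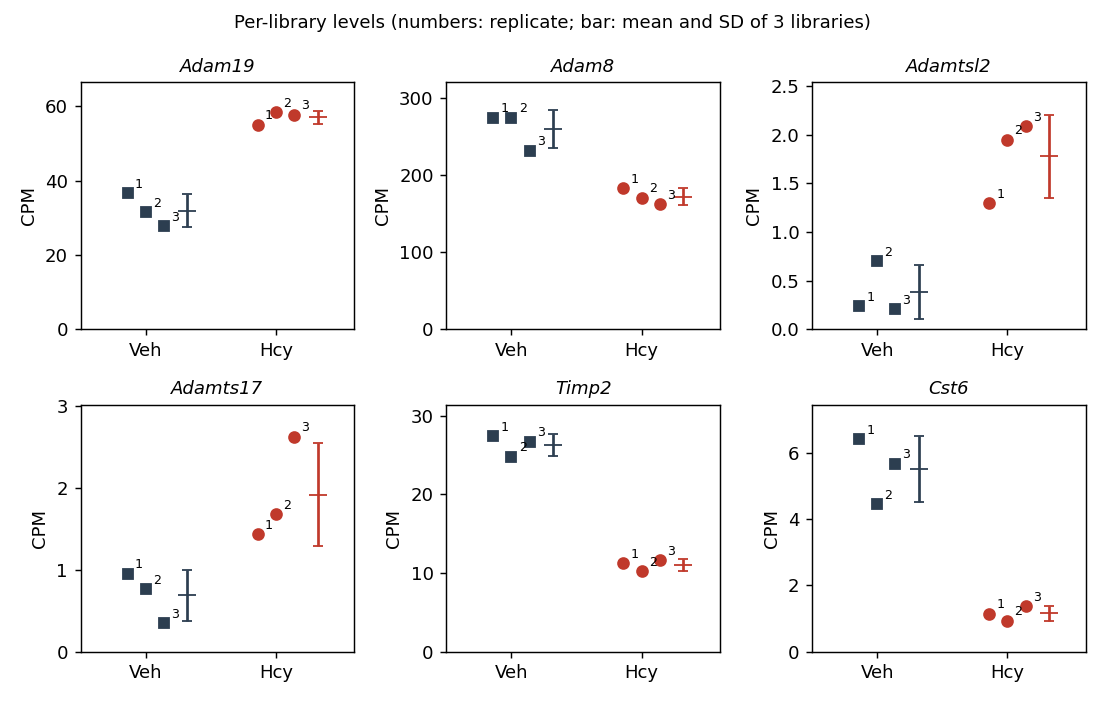
CPM per library (y axis, from 0) for Adam19, Adam8, Adamtsl2, Adamts17, Timp2 and Cst6 in Veh (dark squares) and Hcy (red circles), with replicate numbers beside the points and a bar for the mean and SD of 3 libraries. The 2 groups do not overlap in any of the 6 panels, and Adamtsl2 and Adamts17 sit at or below 2.63 CPM.

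No ADAMTS gene passed the adjusted p among the 13 tested. The family median log2 fold change was 0.17, with 10 positive and 3 negative values, and the Hcy libraries were above the Veh libraries for 3 genes and below them for 1, against 10.8% and 9.27% of all genes. Veh replicate 3 was the lowest Veh library for 9 of the 13. The largest differences were in scarce transcripts.

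Adamts17, a secreted protease linked to fibrillin microfibrils, had 20, 25 and 44 counts in Hcy and 16, 12 and 5 in Veh. This was 1.44, 1.68 and 2.63 CPM against 0.95, 0.765 and 0.346 CPM, so the groups did not overlap. The log2 fold change was 1.46 (SE 0.42, 95% interval 0.52 to 2.40) and did not pass (adjusted p = 0.138, and 0.0847 to 0.456 over the alternatives tried). Adamts12, a protease of cartilage oligomeric matrix protein, went the other way, with 0.718, 1.01 and 0.716 CPM in Hcy and 1.48, 1.59 and 1.11 CPM in Veh. Its Hcy libraries were all below its Veh libraries, and the log2 fold change was -0.78 (95% interval -1.53 to -0.03, adjusted p = 0.351).

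The 5 ADAMTS genes with the highest levels were the proteoglycan-cutting proteases Adamts4, Adamts1 and Adamts9, Adamts7, which cuts cartilage oligomeric matrix protein, and Adamts10, linked to fibrillin microfibrils. Adamts4 stood at 183, 177 and 188 CPM in Hcy and 172, 165 and 150 CPM in Veh, without overlap. Its log2 fold change was 0.17 (95% interval 0.00 to 0.34, adjusted p = 0.369). Adamts7 stood at 91.9, 92.8 and 88.7 CPM in Hcy and 79.7, 87.8 and 71.0 CPM in Veh. These groups were also separate but by less than 1 CPM between the nearest libraries, and the log2 fold change was 0.20 (adjusted p = 0.39), or 0.12 without Veh replicate 3. Adamts1 stood at 87.8, 98.4 and 89.7 CPM in Hcy and 89.9, 91.1 and 60.5 CPM in Veh, with only Veh replicate 3 low. Its log2 fold change was 0.19 (95% interval -0.14 to 0.52, adjusted p = 0.651) and 0.02 without Veh replicate 3. Adamts9 had a log2 fold change of 0.11 (adjusted p = 0.792), which was -0.02 without that library. Adamts10 was the only negative one of the 5, at 52.5, 60.8 and 55.3 CPM in Hcy and 65.5, 62.2 and 57.4 CPM in Veh. Its groups overlapped, and the log2 fold change was -0.13 (95% interval -0.33 to 0.06, adjusted p = 0.57). Adamts5, the major aggrecan-cutting protease of cartilage, had only 15 counts in sum. Adamts13, which cuts von Willebrand factor, had 11, 14 and 20 counts in Hcy and 7, 14 and 21 in Veh, and part of its interval is shared with Cacfd1 on the same strand. At such counts the 95% interval for Adamts13 ran from -0.96 to 1.17 around a value of 0.10. This value was 0.59 without Veh replicate 3 and -0.25 without Veh replicate 1. The interval thus spans changes of up to about 2-fold in either direction.

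Adamtsl2 had the largest fold change of the 44 tested genes. It encodes a secreted glycoprotein without protease activity that binds fibrillin-1 and LTBP1, and it is mutated in geleophysic dysplasia. The counts were 18, 29 and 35 in Hcy and 4, 11 and 3 in Veh, or 1.29, 1.95 and 2.09 CPM against 0.237, 0.701 and 0.208 CPM. Every Hcy library was above every Veh library, and the 2 lowest Veh libraries were near the floor. The log2 fold change was 2.2 (SE 0.48, 95% interval 1.1 to 3.29) with an adjusted p of 0.0547, just short of the threshold. The adjusted p was 0.00861 with DESeq2, 0.0187 without a filter on low counts and 0.0447 with edgeR's filterByExpr. It stayed at 0.0528 to 0.0601 with DESeq2 size factors, library totals, protein-coding genes only, a prior count of 2 or a replicate block. It was 0.0409 without Veh replicate 2 and 0.0492 without Veh replicate 3, but 0.121 to 0.227 without any one of the other 4 libraries, and the log2 fold change was 1.92 to 2.95 over the 6 fits. In the deposited table Adamtsl2 (ENSRNOG00000027742) lies on chromosome 3 at 5624506 to 5654910, 66.3 kb beyond Adamts13. Adamtsl4, known for a role in the zonular fibres of the eye, had a log2 fold change of 0.03 (95% interval -0.33 to 0.39, adjusted p = 0.964). This value was 0.08 without Veh replicate 3 and -0.09 without Veh replicate 2.

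The cathepsins, which carried most reads of the 79 genes, showed no difference that passed the test. Of the 10 tested, 8 were positive and 2 negative, and log2 fold changes ranged from -0.03 to 0.33 with a median of 0.08. The summed level of the family was 6921 to 7339 CPM in Hcy and 6570 to 7475 CPM in Veh, so the groups overlapped.

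Ctsl stood at 4661, 4498 and 4684 CPM in Hcy and 4321, 4357 and 5028 CPM in Veh, with a log2 fold change of 0.01 (95% interval -0.15 to 0.18, adjusted p = 0.962). The highest library was Veh replicate 3, and without it the log2 fold change was 0.09 (adjusted p = 0.273). Ctsb, a lysosomal protease with both endo- and exopeptidase activity, stood at 1510, 1346 and 1445 CPM in Hcy and 1276, 1150 and 1330 CPM in Veh. All Hcy libraries were above all Veh libraries, although the nearest pair were close. The log2 fold change was 0.20 (SE 0.08, 95% interval 0.02 to 0.37, adjusted p = 0.296), and the adjusted p reached 0.049 without Veh replicate 3. Ctsd, the main lysosomal aspartic protease, had a log2 fold change of -0.01 (95% interval -0.16 to 0.13, adjusted p = 0.96) with overlapping groups, and 0.02 without Veh replicate 3. Ctsh, an aminopeptidase, had 0.12 (adjusted p = 0.589), or 0.07 without Veh replicate 1. Ctsk, the collagen-cutting cathepsin of osteoclasts, had 0.17 (adjusted p = 0.702), or 0.26 without Veh replicate 1 and 0.09 without Veh replicate 2. Ctss, the cathepsin of antigen-presenting cells, was near the floor at 6, 12 and 5 counts in Hcy and 7, 7 and 5 in Veh, with an interval from -0.87 to 1.53. Its low level stood beside summed microglia and macrophage markers of at most 3.09 CPM. Reads of Ctsa can be shared with Pltp and Neurl2, which overlap it on the opposite strand.

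None of the 7 tested calpains passed the adjusted p. Of their log2 fold changes 3 were positive and 4 negative, with a median of -0.02 and a range of -0.30 to 0.43. Capn2, the catalytic subunit of m-calpain and the most abundant calpain, stood at 403, 419 and 399 CPM in Hcy and 414, 459 and 430 CPM in Veh. The groups overlapped, and the log2 fold change was -0.09 (95% interval -0.25 to 0.06, adjusted p = 0.622), or -0.05 without Veh replicate 2. Capn1, the catalytic subunit of μ-calpain, was 51.6, 56.5 and 50.9 CPM in Hcy and 51.5, 45.7 and 51.8 CPM in Veh, with a log2 fold change of 0.09 (95% interval -0.09 to 0.28, adjusted p = 0.706), or 0.04 without Veh replicate 2 and 0.05 without Hcy replicate 2. Capn7, a calpain without EF hands, had -0.02 (adjusted p = 0.963), or 0.04 without Hcy replicate 3 and -0.10 without Hcy replicate 2. Capn15 stood at 8.40, 9.81 and 9.73 CPM in Hcy and 12.1, 12.5 and 9.97 CPM in Veh. All its Hcy libraries were below its Veh libraries, by less than 1 CPM for Veh replicate 3, and the log2 fold change was -0.30 (95% interval -0.62 to 0.01, adjusted p = 0.397). Capn3, known as the calpain of skeletal muscle, had 0.43 with a wide interval (-0.40 to 1.26, adjusted p = 0.693). Its size depended on which library was left out, with 0.07 without Hcy replicate 3 and 0.72 without Hcy replicate 2.

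Among the protease inhibitors listed, Timp2 and Cst6 were lower in Hcy. Of 13 listed, 9 were tested, and 8 had negative log2 fold changes (all genes tested: 7749 of 14603 negative). By both thresholds 2 fell, Timp2 and Cst6 (all genes tested: 0.233% lower by both). This list and the gene lists that follow were chosen with earlier results of these data known, so such contrasts do not test them. Timp2, which inhibits matrix metalloproteases and takes part in the activation of pro-MMP2, stood at 11.3, 10.2 and 11.6 CPM in Hcy and 27.4, 24.8 and 26.7 CPM in Veh. The groups were far apart compared with their spread, with a log2 fold change of -1.25 (SE 0.11, adjusted p = 0.000801). Cst6, cystatin E/M, an inhibitor of cathepsins and legumain, stood at 1.15, 0.94 and 1.37 CPM in Hcy and 6.41, 4.46 and 5.68 CPM in Veh. Its log2 fold change was -2.24 (SE 0.25, adjusted p = 0.00309), and both calls held without each library in turn (adjusted p at most 0.0106 for Timp2 and 0.0278 for Cst6). The contractile genes Tagln, Acta2 and Cnn1 were lower in the same Hcy libraries, as given above. Of the 11 markers of pericytes and smooth muscle, 6 had positive values. The part of such cells in the Timp2 and Cst6 differences was not tested.

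The more abundant inhibitors did not pass. Timp3, the main TIMP acting on ADAM and ADAMTS proteases, had a log2 fold change of -0.08 (95% interval -0.33 to 0.18, adjusted p = 0.845), or -0.20 without Veh replicate 3. Cst3, the secreted cystatin C, had -0.26 (adjusted p = 0.461), with Veh replicate 3 the highest library at 327 CPM, and -0.08 without it. Cast, calpastatin, the inhibitor of Capn1 and Capn2, had -0.06 (95% interval -0.21 to 0.09, adjusted p = 0.788), or -0.03 both without Veh replicate 2 and without Hcy replicate 1.

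Of 13 genes for the maturation of ADAM proteases, 11 were tested and 1 passed the adjusted p, against 2.34% of all genes. Tspan17, a tetraspanin that carries Adam10 to the surface, fell from 74.3, 70.2 and 83.5 CPM in Veh to 59.5, 54.2 and 55.3 CPM in Hcy. The groups did not overlap, and the log2 fold change was -0.43 (adjusted p = 0.0401). Without single libraries the adjusted p was 0.0139 (Veh replicate 3) and 0.0623 to 0.20 (each of the other 5). The other tetraspanins tested went both ways and did not pass. Log2 fold changes were 0.41 for Tspan15, 0.17 for Tspan14 and -0.13 for Tspan5 (adjusted p = 0.139, 0.343 and 0.406). Of the 11 genes, 5 had positive and 6 negative values.

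Known shedding targets included 8 genes that passed the adjusted p, in both directions, of 30 tested (all genes: 1.32% higher and 1.01% lower). These targets were listed with earlier results of the data known, so the shares do not test the list. The leukocyte adhesion molecules Vcam1 and Sele and the chemokine Cxcl16 rose, with log2 fold changes of 1.16, 0.99 and 0.33 (adjusted p = 0.0129, 0.011 and 0.0271). Those that fell were the hyaluronan receptor Cd44 (-0.91, adjusted p = 0.00235), the anticoagulant receptors Thbd (-0.68, 0.0131) and Procr (-0.63, 0.0102), the TNF receptor Tnfrsf1b (-0.51, 0.0288) and the Notch ligand Jag1 (-0.44, 0.0418). Only Cd44 of these 8 held without each library in turn (adjusted p at most 0.0275). The highest adjusted p without any 1 library was 0.0564 for Sele, 0.0693 for Procr, 0.0799 for Vcam1 and for Thbd, 0.142 for Tnfrsf1b, 0.168 for Cxcl16 and 0.203 for Jag1, which also missed the threshold with library totals in place of TMM (0.0565). All 8 passed without Veh replicate 3, and the other 7 each failed without Hcy replicate 3. Protein shedding was not measured here.

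Of 19 tested ADAMTS substrates and microfibril proteins, 1 passed the adjusted p, against 2.34% of all genes: Nid2, nidogen-2 of the basement membrane, rose by a log2 fold change of 0.55 (adjusted p = 0.0145, and 0.0783 to 0.0832 without any one of the Hcy libraries). Vwf, the substrate of Adamts13, stood at 2940, 3003 and 2858 CPM in Hcy and 2533, 2355 and 1976 CPM in Veh, without overlap, and did not pass (0.36, adjusted p = 0.0932). None of 19 tested genes for lysosomal sorting and lysosomal enzymes and none of 7 calpain small subunit and substrate genes passed the adjusted p. Capns1, the small subunit that Capn1 and Capn2 require, varied from 25 to 2995 counts within the Veh group, with 977, 2948 and 1410 in Hcy and 2995, 2352 and 25 in Veh. The table lists 2 further entries on chromosome 1 annotated as the same protein, 1 of them with the same length of 729 bases, but these held at most 72 counts in any library and 27 and 20 in Veh replicate 3. The log2 fold change of Capns1 was 0.09 (adjusted p = 0.982), or -0.48 without Veh replicate 3, and is uncertain.

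The departure of Veh replicate 3 moved with gene length. The ADAM and ADAMTS transcripts are longer than the cathepsin transcripts, by the deposited lengths. Whether length accounts for the levels of these families in Veh replicate 3 was not tested. Over the 11788 genes with a mean of at least 1.0 CPM, Spearman's rho between gene length and the library's deviation from the mean was -0.436 in Veh replicate 3, against 0.243 and 0.274 in Veh replicates 1 and 2 and -0.142, 0.198 and 0.0402 in the Hcy libraries. Over the 35 protease genes of this level it was -0.376 in Veh replicate 3, 0.0782 and 0.333 in Veh replicates 1 and 2 and -0.151, 0.213 and 0.0585 in Hcy replicates 1, 2 and 3, a description across genes that share a library. Veh replicate 3 was the lowest Veh library for 10 of 12 tested ADAM genes, for 9 of 13 ADAMTS genes and for 1 of 10 cathepsins. Compared with Veh replicates 1 and 2 alone, Hcy lay at a log2 ratio of 0.75 for Adam19, -0.67 for Adam8 and 1.92 for Adamtsl2, and the adjusted p of the fits without Veh replicate 3 was 0.000676, 0.000308 and 0.0492.

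**Figure D4:**
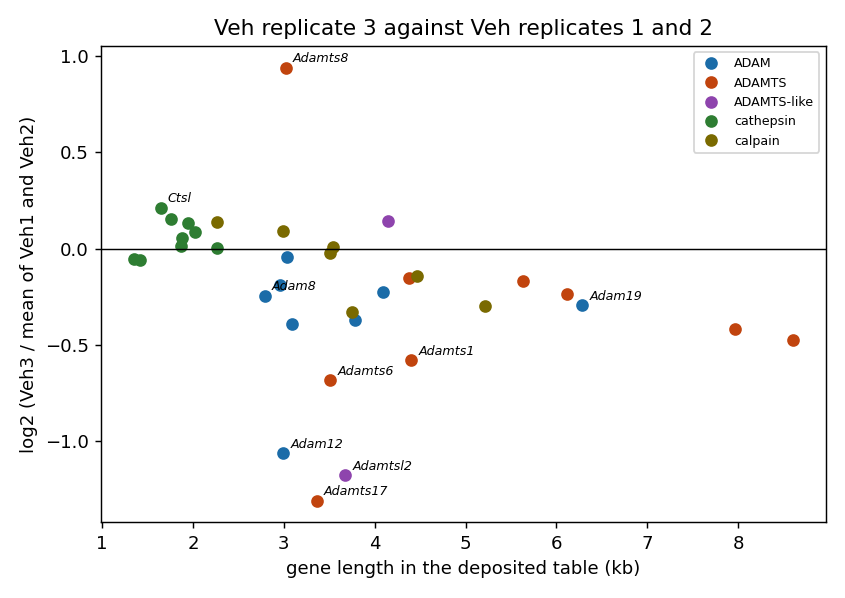
Log2 ratio of the CPM in Veh replicate 3 to the mean of Veh replicates 1 and 2 (y axis) against gene length in kilobases (x axis). Points are the 35 of the 79 genes with a mean of at least 1.0 CPM, coloured by family. The cathepsins, all among the shortest, lie between -0.06 and 0.21, and most ADAM and ADAMTS genes lie below 0, down to -1.31 for Adamts17.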

How the data were processed

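The authors deposited, for each of the 6 libraries (poly(A) RNA, paired ends), raw read counts per gene, beside gene positions, lengths and Pfam domains. The submitters' processing notes name fastp, HISAT2 2.2.1, StringTie 2.2.3, Cufflinks, featureCounts 2.0.6, DESeq2 1.42.0 and mRatBN7.2 (rn7). The table itself names no build, and its positions were not read as mRatBN7.2. Whether counting used the strand is not given in the sources used here. The authors' own comparison table (normalized signal, log2 fold changes and p-values) was not used.

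A gene was tested when its counts over all libraries came to 10 or more. The test was edgeR's quasi-likelihood test (edgeR 4.0.16, R 4.3.3, limma 3.58.1) on TMM-scaled counts (factors 0.977 to 1.02), with no term besides Hcy or Veh and Benjamini-Hochberg adjustment over all genes tested. A call required an adjusted p of 0.05 or less and at least a 2-fold change, which is 1 on the log2 scale. CPM and RPKM were computed from the counts, TMM scaling and deposited lengths. SDs are over 3 libraries. The fits were tested on simulated data.

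The members, lists and rules were chosen with earlier results of these data known. Genes named were those with an adjusted p of at most 0.05, the 3 with the smallest p and the 3 with the highest RPKM per family, members and inhibitors of known role, and partner genes with an adjusted p of at most 0.05. Other genes were named after their values were seen. Alternatives were DESeq2 1.42.0, its size factors, library totals, other filters, protein-coding genes only, a prior count of 2, unadjusted p, no fold threshold, the replicate block and leaving out each library.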

Additional observations from a re-analysis of the deposited data

How the results depend on the processing

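Of the values computed for 43 named genes under alternative settings, 531 kept their direction and side of the threshold, 45 lost the adjusted p, 6 gained it and 18 changed sign, all 18 when a library was left out. Genes called (71) numbered 109 without a filter, 374 at unadjusted p, 341 without the fold threshold and 39 to 112 without single libraries. Called protease genes (0) numbered 1 with DESeq2, without a filter and with filterByExpr (Adamtsl2 each time, beside 0.685%, 0.583% and 0.61% of all genes), 2 at unadjusted p, 2 without the fold threshold and 0 to 1 without single libraries. Those passing the adjusted p (2, beside 2.34% of all genes) numbered 1 to 4 without single libraries, beside 0.557% to 6.67% of all genes. The median log2 fold change (0.11) was 0.0484 without a filter, which adds 11 genes of 1 to 9 counts, and 0.0457 to 0.1105 without single libraries. Leaving out single libraries changed the sign of Adamtsl4 (-0.0918 to 0.1089), Capn7 (-0.0962 to 0.0389), Ctsl (-0.0236 to 0.0887), Ctsd (-0.0432 to 0.0156), Adam10 (-0.0243 to 0.16), Adamts5 (-0.18 to 0.81), Adamts9 (-0.0168 to 0.20), Adamts13 (-0.25 to 0.59), Ctss (-0.16 to 0.61), Timp3 (-0.20 to 0.0005) and Capns1 (-0.51 to 0.63), none of which passed in any setting. The cause was not tested. Same-numbered libraries correlated at 0.0237, 0.166 and 0.0581 in their deviations, so the numbers were not taken as pairs. With the replicate block 82 genes, 0 protease genes by both thresholds and 2 by adjusted p passed (median 0.12). With the block Tspan17, Cxcl16 and Tnfrsf1b no longer passed the adjusted p (0.0607, 0.0608 and 0.0525), and Adam19 and Adam8 still did. With library totals in place of TMM, Jag1 did not pass (0.0565). Counts under about 20 in sum limit what Adamts2, Adamts5, Adamts14 and Adam22 can show.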
